A study of Homo sapiens with 6 samples.

Results

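The 10 genes described here build microvilli, the actin-filled fingers of the cell surface that stand packed as a brush border on absorptive epithelia. They were taken by gene name from the deposited tables: MYO7B, ANKS4B, USH1C, CDHR2 and CDHR5 of the complex that links microvillus tips, MYO1A, which ties the membrane to the actin core, and VIL1, ESPN, PLS1 and EPS8 of the core itself. All 10 were found among 58735 genes, and 9 of them were among the 16340 genes with enough counts to be tested. No threshold was applied, but the genes were selected on earlier results from these counts, fold changes between the 3 groups, as well as on function. Their calls therefore describe these genes and are not independent evidence of a direction. RNA came from A549, a human lung adenocarcinoma line grown in RPMI 1640 with 10% serum, which all groups share. Cells of the WT group were stably transduced with a PLVX lentivirus carrying HOXB9, a homeobox transcription factor. Those of the T133A group carried HOXB9 with threonine replaced by alanine at the position in its name, and those of the KO group were labelled as a HOXB9 knockout in the same PLVX lentivirus. Each group had 2 libraries, with no empty-vector or untransduced cells, and the labels do not say whether a line was 1 clone, whether the cells' own HOXB9 was intact under the constructs, or whether replicates were grown as separate cultures. P-values therefore measure only the spread between these libraries, which may be technical.

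A microvillus is a bundle of parallel actin filaments wrapped in plasma membrane. Villin, espin, plastin 1 and EPS8 cross-link the filaments or cap their growing ends, and myosin 1A bridges the bundle to the membrane. At the tips, the protocadherins CDHR2 and CDHR5 of neighbouring microvilli bind each other, and inside the cell they are held by the scaffolds harmonin (USH1C) and ANKS4B and by the motor myosin 7B, which gathers them at the tip. This machinery is best known from the intestine and the kidney proximal tubule, and harmonin also belongs to the related complex of inner-ear hair bundles.

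The counts totalled 16299059 to 18745432 per library. HOXB9 itself had 3807 and 3889 counts in WT, 4777 and 3577 in T133A, against 239 and 286 in KO (log2 fold change to WT -3.88, SE 0.135). Of the 6 epithelial markers none was at 0, and their summed level ran from 7899 to 10085 CPM (read counts scaled to library size by the TMM method, the unit of levels below unless stated). Within them EPCAM stood at 14.5 and 17.0 CPM in WT, 13.0 and 12.5 in T133A, against 1.94 and 1.72 in KO. The markers divided, since CDH1, KRT8 and KRT18 were also lower in both KO libraries than in both WT libraries, KRT19 overlapped, and KRT7 was higher, at 870 and 888 CPM in WT against 1926 and 1638 in KO. Among 7 haematopoietic (5.52 to 12.9 CPM summed), 5 endothelial (0.304 to 2.35) and 5 embryonic kidney line markers (46.1 to 69.2), 1 haematopoietic marker was at 0 throughout. The 7 fibroblast markers summed to 42.6 to 42.9 CPM in WT and T133A and to 13.9 and 14.1 in KO. That sum followed LUM (21.6 and 20.9 CPM in WT, 0.243 and 0.215 in KO) and COL3A1 (13.3 and 13.4 against 0.0607 and 0.0538), whereas COL1A1 (6.43 and 6.36 against 9.04 and 9.90) and THY1 (0.76 and 0.613 against 4.74 and 3.55) were higher in KO. Mitochondrial genes took 7.84% to 8.91% of counts in WT and T133A against 5.6% and 4.45% in KO. The part of these differences in the results was not tested, and in bulk RNA fewer cells of a type and less RNA per cell cannot be told apart.

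Per length, the members spanned a wide range in WT. On the deposited FPKM scale EPS8 (21.1 ± 0.254, SD, n = 2) and PLS1 (19.3 ± 1.49) were highest, followed by USH1C (7.04 ± 0.0739), ANKS4B (1.63 ± 0.207), MYO1A (1.02 ± 0.0198) and MYO7B (0.935 ± 0.0882). CDHR2 (0.328 ± 0.0328) and VIL1 (0.297 ± 0.115) overlapped in their libraries, CDHR5 stood at 0.182 ± 0.045, and ESPN was last at 0.0167 ± 0.0237. In WT both libraries of each tip scaffold and of the motor lay above both libraries of either cadherin, and villin and espin RNA was scarce.

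**Figure D1:**
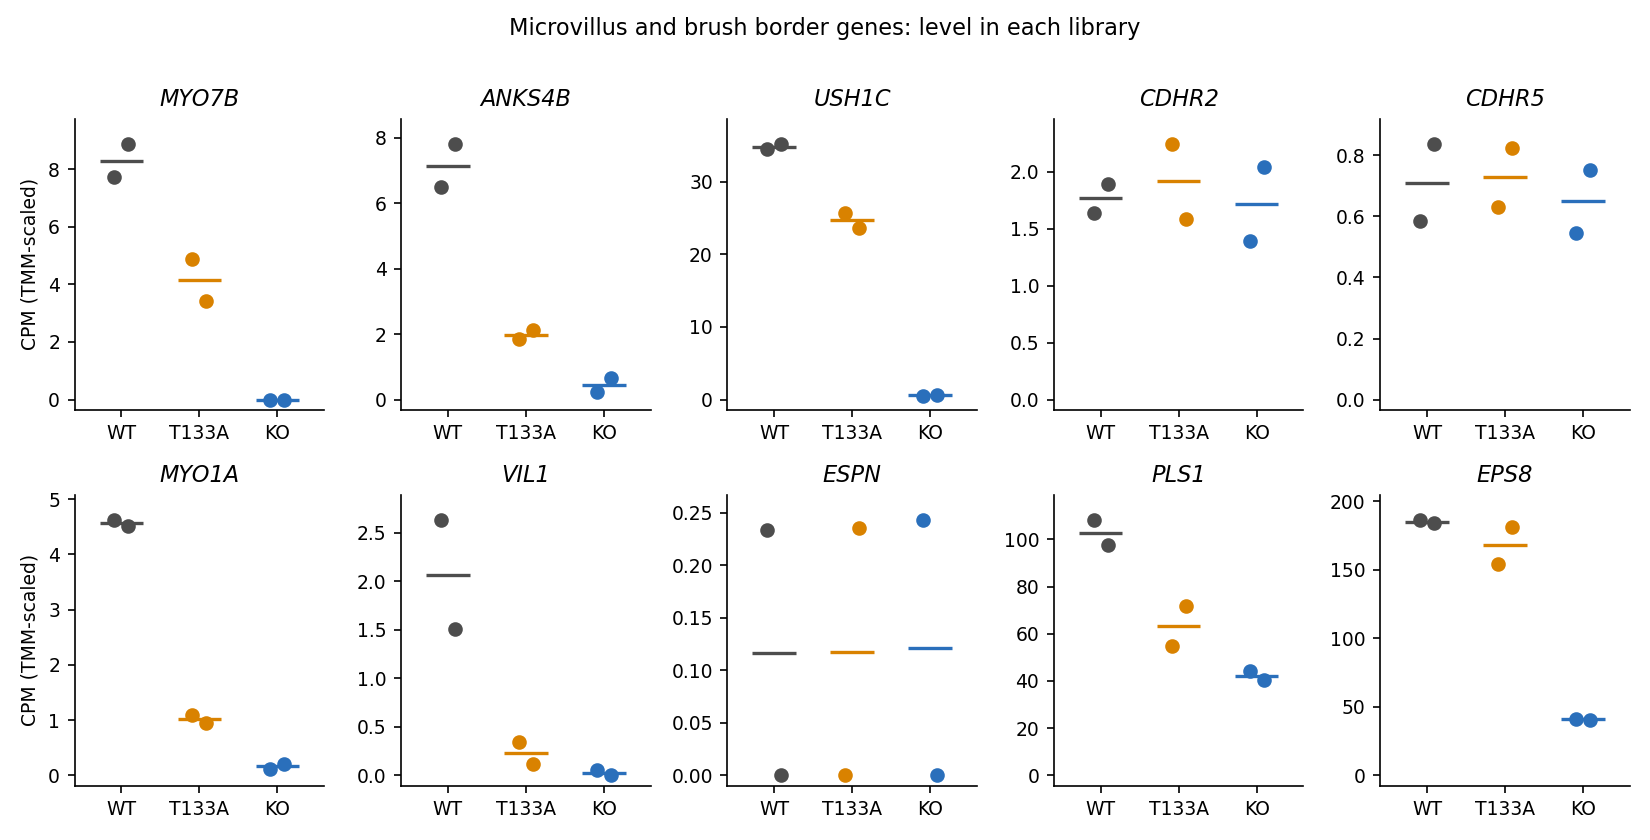
Level of each of the 10 genes in the 6 libraries, in CPM after TMM scaling, on linear axes of their own; points are libraries and bars are group means. MYO7B, ANKS4B, USH1C, MYO1A, VIL1 and PLS1 step down from WT to T133A to KO, EPS8 is low in KO, and CDHR2, CDHR5 and ESPN show no order.

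To show the DNA at annotated starts of genes that stepped down, 3 promoter windows from RefSeq (GRCh38.p14, 300 bases, from 250 before the start) are given, 5′ to 3′ on the gene's own strand. Of the 10 genes, 6 had 12 windows in the table. CDHR5, VIL1, ESPN and EPS8 had no entry. Capitals mark letters of 3 of the 4 motifs searched on both strands: CAAAGTCCA, bound by HNF4 factors, TTTATG, bound by CDX and posterior HOX factors, and CACGTG, an E-box. They occur in 0.384%, 10.6% and 7.26% of all 35116 windows, and none overlapped another in a member. The windows of MYO1A (chr12:57050080-57050379, reverse strand, the second of 2 starts), PLS1 (chr3:142623174-142623473, forward strand, the second of 3 starts) and MYO7B (chr2:127535433-127535732, forward strand) read:
MYO1A: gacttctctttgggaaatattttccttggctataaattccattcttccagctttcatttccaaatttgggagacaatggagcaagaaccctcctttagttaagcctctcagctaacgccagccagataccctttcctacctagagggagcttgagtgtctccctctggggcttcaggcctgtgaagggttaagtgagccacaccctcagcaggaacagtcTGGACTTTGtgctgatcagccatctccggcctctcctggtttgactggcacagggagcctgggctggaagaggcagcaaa
PLS1: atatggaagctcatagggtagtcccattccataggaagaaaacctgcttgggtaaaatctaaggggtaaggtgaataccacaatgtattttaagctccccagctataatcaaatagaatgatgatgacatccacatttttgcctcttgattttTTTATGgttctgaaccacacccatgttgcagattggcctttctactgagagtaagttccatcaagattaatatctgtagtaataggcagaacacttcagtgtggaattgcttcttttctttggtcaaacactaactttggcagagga
MYO7B: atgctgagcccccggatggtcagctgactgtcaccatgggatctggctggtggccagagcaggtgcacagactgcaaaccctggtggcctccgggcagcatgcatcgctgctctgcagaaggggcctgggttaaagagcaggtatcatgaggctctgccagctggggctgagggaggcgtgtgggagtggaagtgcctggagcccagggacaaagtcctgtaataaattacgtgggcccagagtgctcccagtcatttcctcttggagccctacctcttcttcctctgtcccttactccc
The MYO1A window holds the HNF4 motif on the other strand from 30 bases before the start, the single member window with it. The PLS1 window holds TTTATG on the given strand from 97 bases before the start, and another of its 3 windows holds it on the other strand from 33 bases after the start. The windows shown for MYO1A and PLS1 hold a motif but are not those nearest the deposited gene start. Their starts lie 1069 and 27037 bases from it. The nearest windows of MYO1A and PLS1, at 0 and 6 bases, hold none of these 3 motifs. These 3 motifs were not found in the windows of MYO7B, ANKS4B, USH1C or CDHR2, which says nothing of the motif left out. CpG pairs were few at the starts of MYO1A (1 in the window nearest the start in the files), MYO7B (5) and ANKS4B (5), intermediate at CDHR2 (10), and more frequent at USH1C (20) and PLS1 (24), beside a median of 14 over all windows (quartiles 4 and 28). A match is a description of the letters, and which start A549 cells use was not analysed here.

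The motor and both scaffolds of the tip complex were lower in T133A than in WT and nearly absent in KO. MYO7B, the motor (ENSG00000169994, chr2:127535802-127637729 on GRCh38, forward strand), was counted 132 and 159 times in WT, 85 and 58 times in T133A, and 0 times in both KO libraries. The 3 groups did not overlap. Its level was 8.29 ± 0.814 CPM in WT and 4.15 ± 1.04 in T133A (log2 fold change -1.0, SE 0.237). A count of 0 allows up to 3 counts, 0.182 and 0.162 CPM in the KO libraries, so MYO7B was at least 48.3-fold lower in KO than in WT and at least 24.2-fold lower than in T133A, taking 3 counts per KO library. Such floors cover counting error only.

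Harmonin RNA was the most abundant of the tip complex in WT and T133A and was low in KO. USH1C (ENSG00000006611, chr11:17493895-17544416, reverse strand) had 589 and 630 counts in WT, 447 and 401 in T133A, against 8 and 12 in KO. Both T133A libraries lay below both WT libraries, and both KO libraries far below all others. The means were 34.8 ± 0.498, 24.6 ± 1.5 and 0.566 ± 0.113 CPM. USH1C fell by 0.50 on the log2 scale in T133A (SE 0.134) and by 5.91 in KO (SE 0.22), a 60.3-fold difference.

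ANKS4B, the smaller scaffold (ENSG00000175311, chr16:21233665-21253845, forward strand), had 111 and 140 counts in WT, 32 and 36 in T133A, against 4 and 12 in KO. No library of one group reached into another. The levels were 7.15 ± 0.933, 1.98 ± 0.196 and 0.444 ± 0.285 CPM, and the log2 fold change of ANKS4B was -1.85 in T133A (SE 0.28) and -3.95 in KO (SE 0.354). The KO value depended on the library, at -3.43 without KO replicate 1 and -4.85 without KO replicate 2. ANKS4B lies across CRYM on the other strand over 14972 bases. CRYM had 71 and 97 counts in WT, 48 and 33 in T133A, against 30 and 31 in KO, and since the strand setting of the counting is not given, reads of the pair may be shared.

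The 2 cadherins that this machinery holds did not follow it in KO. CDHR2 (ENSG00000074276, chr5:176542511-176595974, forward strand) had 28 and 34 counts in WT, 39 and 27 in T133A, against 23 and 38 in KO. The libraries of all 3 groups overlapped, with 1.77 ± 0.183, 1.91 ± 0.463 and 1.72 ± 0.459 CPM. Its log2 fold change was 0.12 in T133A (95% interval -0.61 to 0.85) and -0.03 in KO (-0.77 to 0.71), so a fall of the size seen for MYO7B, ANKS4B or USH1C in KO lies outside its interval. CDHR2 shares 173 bases with GPRIN1 on the other strand. GPRIN1 had 427 and 460 counts in WT, 655 and 563 in T133A, against 727 and 937 in KO. With the strand setting of the counting unknown, reads of this pair may be shared too, and their part in the CDHR2 counts was not tested. CDHR5 (ENSG00000099834, chr11:616565-626078, reverse strand), the partner cadherin, had 10 and 15 counts in WT, 11 and 14 in T133A, against 9 and 14 in KO, again with overlap throughout. At this depth its intervals were wide, from -1.09 to 1.15 in T133A and from -1.25 to 1.01 in KO.

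MYO1A, the membrane tether, followed the tip motor. MYO1A (ENSG00000166866, chr12:57028517-57051198, reverse strand) had 79 and 81 counts in WT, 19 and 16 in T133A, against 2 and 4 in KO, with no overlap between groups. The levels were 4.57 ± 0.0712, 1.02 ± 0.107 and 0.168 ± 0.0664 CPM. MYO1A fell by 2.16 on the log2 scale in T133A (SE 0.331) and by 4.68 in KO (SE 0.448).

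Of the core genes, VIL1, the calcium-regulated bundling and severing protein that marks brush borders, was scarce and became scarcer. VIL1 (ENSG00000127831, chr2:218419092-218453295, forward strand) had 45 and 27 counts in WT, 6 and 2 in T133A, against 1 and 0 in KO. Every WT library lay above every other library. It passed the filter on low counts only through its WT libraries, so the filter set the direction of its difference, though not the size. The fitted log2 fold change in T133A was -3.11 (SE 0.61), and -4.04 without T133A replicate 1. For KO the ratio of WT to KO counts, scaled for depth, was 72.0 with an exact 95% counting interval of 12.5 to 2884. ESPN, an actin bundler also of hair bundles (ENSG00000187017, chr1:6424776-6461367, forward strand), had 4 and 0 counts in WT, 0 and 4 in T133A, against 4 and 0 in KO. At about the level that a count of 0 allows, no difference of ESPN was detectable at this depth, and it was not tested.

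PLS1 and EPS8, the abundant core genes, were both lower in KO, and PLS1 alone also passed in T133A. PLS1, encoding the bundler plastin 1 (ENSG00000120756, chr3:142596387-142713664, forward strand), had 1850 and 1747 counts in WT, 956 and 1218 in T133A, against 726 and 749 in KO. The groups stepped down without overlap, from 103 ± 7.58 to 63.3 ± 11.8 and 42.2 ± 2.66 CPM. PLS1 fell by 0.70 in T133A (SE 0.123) and by 1.28 in KO (SE 0.126), both on the log2 scale. EPS8, which caps and bundles actin at microvillus tips (ENSG00000151491, chr12:15620158-15882329, reverse strand), had 3184 and 3299 counts in WT, 2679 and 3085 in T133A, against 683 and 756 in KO. Its levels were 185 ± 1.52, 168 ± 19.4 and 41.1 ± 0.546 CPM. Both T133A libraries lay below both WT libraries, replicate 2 closely so, and both KO libraries lay far below. EPS8 fell by 2.17 in KO (SE 0.112), whereas its log2 fold change in T133A was -0.14 (95% interval -0.36 to 0.07) and did not pass.

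Counted together in the fit across all genes (edgeR's quasi-likelihood test, adjusted p under 0.05), 6 of the 9 tested members were lower in T133A than in WT (MYO7B, ANKS4B, USH1C, MYO1A, VIL1 and PLS1) and none was higher, beside 3.97% of all genes lower, 5.58% higher and 9.55% called in either direction. In KO against WT 7 were lower, the same 6 and EPS8, and none was higher, beside 23.0% of all genes lower, 23.6% higher and 46.6% called in either direction. No further member rose at an unadjusted p under 0.05 or with DESeq2 in either comparison. The 2 comparisons share the WT libraries. MYO7B and MYO1A passed the filter on low counts without a KO library, and VIL1 passed it through its WT libraries alone. In both comparisons the counts therefore carry no evidence on the set. The T133A calls of USH1C were lost without WT replicate 1 (adjusted p = 0.152, edgeR) or WT replicate 2 (0.177), those of MYO7B without WT replicate 2 (0.0874) or T133A replicate 2 (0.0618) and that of VIL1 without WT replicate 1 (0.0602), whereas the KO calls of all 7 remained with any 1 library left out.

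**Figure D2:**
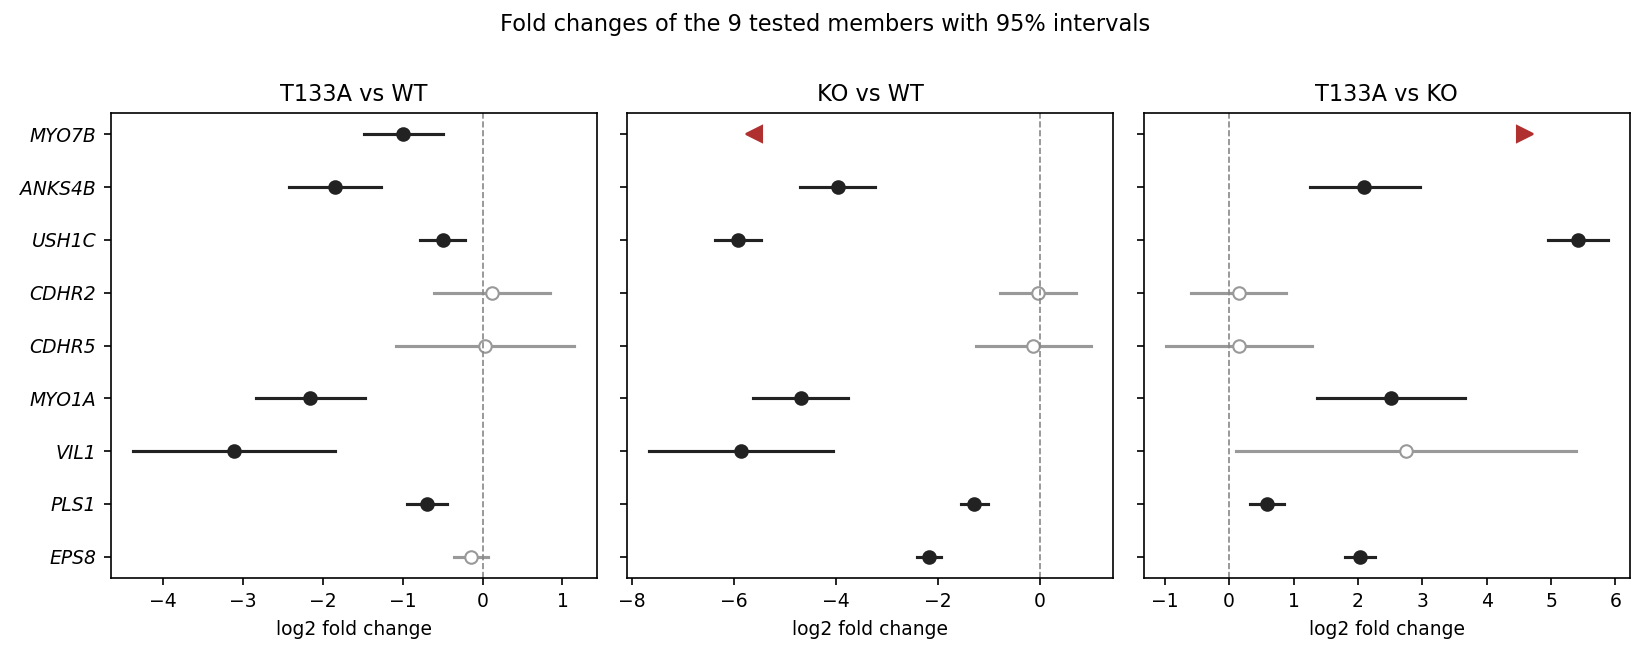
Log2 fold changes of the 9 tested genes in the 3 comparisons, with 95% intervals from edgeR's quasi-likelihood fit; filled points passed an adjusted p under 0.05, and triangles mark MYO7B as a bound where KO had 0 counts. In the KO comparison CDHR2 (-0.03) and CDHR5 (-0.12) sit at 0 while USH1C lies at -5.91 and EPS8 at -2.17; the horizontal scales differ between panels.

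Compared directly, T133A stood above KO for 6 of the 9 members, with none lower (adjusted p under 0.05, edgeR, and the same count with DESeq2), beside 20.3% of all genes higher, 19.6% lower and 39.9% called in either direction. At an unadjusted p under 0.05 the count was 7 higher and still none lower. Since MYO7B and MYO1A passed the filter on low counts without a KO library, and the members were selected on earlier results, these counts too carry no evidence on the set. The log2 fold change was 5.42 for USH1C (SE 0.225), 2.52 for MYO1A (SE 0.554), 2.10 for ANKS4B (SE 0.413), 2.03 for EPS8 (SE 0.112) and 0.59 for PLS1 (SE 0.126), with the bound for MYO7B given above. The ANKS4B value was 1.57 without KO replicate 1 and 3.0 without KO replicate 2. VIL1 did not pass (adjusted p = 0.0926, edgeR), with a ratio of T133A to KO counts of 8.15 and a 95% counting interval of 1.09 to 362.

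The 7 members called lower in KO stood at different shares of their WT mean. In T133A, USH1C kept 73.9% and 67.8% of its WT mean in the 2 libraries, PLS1 53.5% and 69.7%, and MYO7B 58.9% and 41.1%. ANKS4B (25.7% and 29.6%), MYO1A (23.9% and 20.6%) and VIL1 (16.7% and 5.69%) kept less, and their T133A libraries all lay below those of the former 3. In KO the order changed. USH1C, with the highest mean share of these 6 in T133A, kept 1.40% and 1.86%, MYO1A 2.66% and 4.71%, and ANKS4B 3.40% and 9.04%, while EPS8 kept 22.4% and 22% and PLS1 42.9% and 39.2%. No test of these differences between genes was made.

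**Figure D3:**
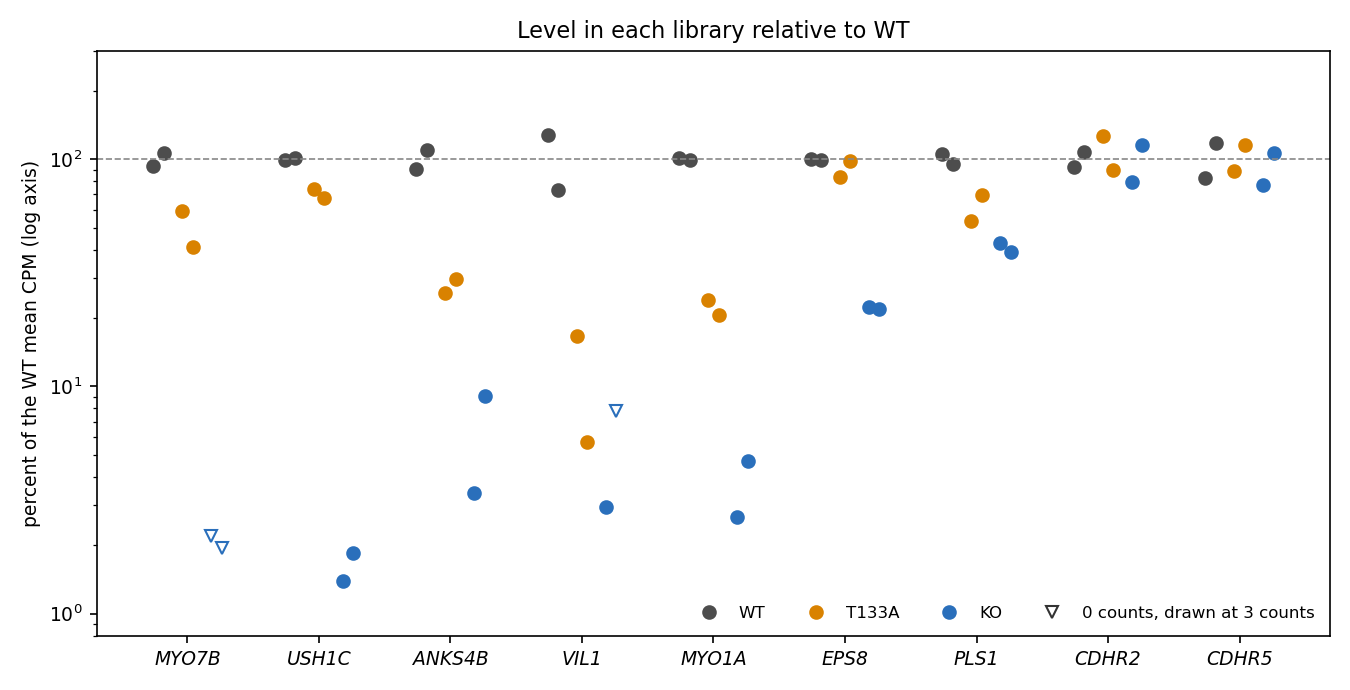
Level of 9 members in each library as a percent of the gene's WT mean CPM, on a log axis; open triangles are libraries with 0 counts, drawn at 3 counts, and the dashed line is the WT mean. USH1C lies below the WT mean in T133A (73.9% and 67.8%) and is lowest in KO (1.40% and 1.86%) of the members counted in both KO libraries, and CDHR2 and CDHR5 scatter about the line in every group.

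The order of members per length changed with it. On the deposited FPKM scale CDHR2 moved from the seventh place in WT to the third in KO (0.322 ± 0.0921) and CDHR5 from the ninth to the fourth (0.168 ± 0.0411), with means above those of USH1C (0.115 ± 0.0254), ANKS4B (0.103 ± 0.0674), MYO1A (0.038 ± 0.0157) and MYO7B (listed at 0). The libraries of ANKS4B overlapped those of USH1C and of CDHR5 in KO, as did those of MYO1A with ESPN and of VIL1 with its neighbours. PLS1 (7.95 ± 0.341) and EPS8 (4.72 ± 0.0325) exchanged places at the top. In T133A the order at the top was that of WT, and MYO7B (0.467 ± 0.11) and ANKS4B (0.451 ± 0.0519) overlapped.

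Close relatives of the members, named here after their values were seen, gave other values in KO. MYO7A, the myosin 7 of hair cells, had 64 and 64 counts in WT and 55 and 69 in KO (log2 fold change -0.05, 95% interval -0.57 to 0.47), where MYO7B had 0. The plastin gene PLS3 stood at -0.11 (-0.33 to 0.11) where PLS1 fell by 1.28. Of the EPS8 family, EPS8L3 fell by 5.28 in KO (SE 0.245; 373 and 372 counts in WT, 473 and 371 in T133A, 8 and 11 in KO), EPS8L2 stood at 0.11 (-0.11 to 0.34) and EPS8L1 at -0.32 (-0.82 to 0.19). Like EPS8, EPS8L3 did not pass in T133A (0.20, -0.10 to 0.51). Of the class 1 myosins, MYO1D fell by 1.32 (SE 0.171) and MYO1E by 0.43 (SE 0.111) in KO, and MYO1C stood at 0.13 (-0.09 to 0.35).

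Beyond the members, 7 lists of microvillus and brush border genes held 93 genes in the files, of which 70 were tested. In KO 16 of the 70 rose and 25 fell (median log2 fold change -0.14, beside 0.001 over all genes), where 23.6% of all genes rose and 23.0% fell. In T133A 4 rose and 7 fell (median -0.08, beside 0.004), where 5.58% of all genes rose and 3.97% fell. The counts of each list below stand beside these same shares. List genes scarce in KO, PDZD3 below among them, passed the filter on low counts only through other groups, which partly set their direction. The other genes related to the tip complex, among them Usher genes of hair bundles, had 1 of 5 lower and none higher in both comparisons (none higher at an unadjusted p under 0.05 or with DESeq2). That gene was CDHR1, a protocadherin known from photoreceptors, with 2.98 ± 0.667 CPM in WT, 1.34 ± 0.061 in T133A and 0.704 ± 0.223 in KO. It fell by 2.06 in KO (SE 0.388). Its call in T133A (log2 fold change -1.16) was lost when any 1 WT or T133A library was left out and with DESeq2, with adjusted p between 0.0599 and 0.394.

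Actin bundlers, caps and rootlet genes divided in KO, with 7 of 18 higher and 4 lower (median 0.01). FSCN1, whose product fascin bundles actin in filopodia, rose from 174 ± 1.68 CPM in WT to 251 ± 35.6 in T133A and 530.9 ± 10.1 in KO (log2 fold changes 0.53, SE 0.107, and 1.61, SE 0.109). TPM1, encoding a tropomyosin that coats actin filaments, rose by 0.69 in T133A (SE 0.117) and 1.76 in KO (SE 0.118), and EPS8L3, above, was the member with the largest fall in KO. In T133A 2 rose and 2 fell of 18 (median 0.12). EPS8L2 was among those lower (-0.39, SE 0.109), a call lost when either WT library or T133A replicate 2 was left out (adjusted p between 0.104 and 0.276). Of the 8 other microvillar and apical myosins 2 rose and 4 fell in KO (median -0.28). MYH9, the heavy chain of nonmuscle myosin 2A, rose by 1.08 (SE 0.109) and MYO6, the motor that walks toward the microvillus base, fell by 0.82 (SE 0.113). MYH9 alone was called in T133A (0.43, SE 0.109), and not when either WT library or T133A replicate 1 was left out (adjusted p between 0.0785 and 0.195). MYO6 stood at -0.34 in T133A (adjusted p = 0.0563, edgeR) and passed with library size only, with only the 2 groups compared and without either KO library (-0.35 to -0.41, adjusted p between 0.0200 and 0.0389).

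In the list of ERM proteins (ezrin, radixin and moesin, which link actin to the membrane), PDZ scaffolds and apical sialomucins, 1 of 8 rose and 3 fell in KO (median -0.22; 46.6% of all genes called), and 1 fell in T133A (median -0.23; 9.55% called). RDX, encoding radixin, fell by 0.48 in KO (SE 0.112) and lost that call with a correction for GC content and length (-0.13, adjusted p = 0.141, edgeR). SLC9A3R2, a scaffold that binds ezrin, fell by 0.52 in T133A and 0.49 in KO (SE 0.112 in both), and both calls were lost without WT replicate 2 (adjusted p = 0.122 and 0.0518). PDZD3, a PDZ scaffold of the brush border, had 20 and 15 counts in WT, 11 and 6 in T133A, against 1 and 0 in KO, a WT to KO count ratio of 35 with a 95% counting interval of 5.88 to 1422. EZR itself, named after its values were seen, stood at 0.24 in KO (0.02 to 0.45) and -0.17 in T133A (-0.38 to 0.04) and passed in neither.

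The LKB1 pathway, which can induce a brush border in single epithelial cells through the kinase STK26 and ezrin, had 4 of 11 genes higher and 2 lower in KO (median 0.22) and none called in T133A (edgeR and DESeq2; 1 higher and none lower at an unadjusted p under 0.05; median 0.05). STK11, the LKB1 gene itself, which A549 cells are known to carry in mutated form, rose by 0.63 in KO (SE 0.13), STK26 by 0.56 (SE 0.148), and RAPGEF2, an exchange factor for RAP GTPases, fell by 0.56 (SE 0.118). The STK26 call in KO was lost without WT replicate 2 (adjusted p = 0.0507), and with the correction for GC content and length STK26 passed in T133A (0.37, adjusted p = 0.0245, edgeR). CAB39, the most abundant gene of the list, stood at 0.12 in T133A (-0.11 to 0.35).

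Brush border enzymes and transporters had 6 of 11 tested genes lower in KO and none higher (4 lower and none higher with DESeq2, and 6 and none at an unadjusted p under 0.05; median -0.83), beside 23.0% of all genes lower. CFTR, and MME and CUBN, both named after their values were seen, passed the filter on low counts only through WT and T133A libraries. In KO MME had 2 and 5 counts and CUBN 6 and 10. Genes so scarce in KO could be tested only if higher elsewhere, so this direction was partly set by the filter. The other 15 of the 26 in the files had too few counts, with SI, MEP1A, FABP1 and FABP2 at 0 in all libraries, named after their values were seen. MGAM, a starch-digesting enzyme, was at 12.6 ± 1.20 CPM in WT, 5.49 ± 0.941 in T133A and 1.31 ± 0.031 in KO, and fell by 1.20 in T133A (SE 0.198) and 3.26 in KO (SE 0.242). DPP4, a peptidase, fell by 0.92 (SE 0.217) and 3.09 (SE 0.27), the former call being lost without WT replicate 1 (adjusted p = 0.0657). CFTR, the chloride channel of cystic fibrosis, had 78 and 96 counts in WT, 83 and 79 in T133A, against 1 and 2 in KO, a WT to KO ratio of 58.0 (95% counting interval 19.5 to 284), and stood at -0.07 in T133A (-0.57 to 0.42). In T133A 1 rose and 2 fell (median -0.31). The one that rose was GGT1, a peptidase of glutathione breakdown (0.46, SE 0.12), a call lost when either WT library or T133A replicate 1 was left out (adjusted p between 0.0561 and 0.203).

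Of 9 tested transcription factors of absorptive epithelia, 5 fell and 2 rose in KO (median -0.47). HNF4A, a regulator of enterocyte and hepatocyte genes, had 503 and 492 counts in WT, 481 and 350 in T133A, against 74 and 120 in KO, and fell by 2.37 in KO (SE 0.183). Its relative HNF4G fell by 1.79 (SE 0.19), and the log2 fold change of the epithelial factor KLF5 was -1.82 (SE 0.109). In T133A HNF4G alone was called (-0.60, SE 0.174), a call lost when either WT library or T133A replicate 1 was left out and with DESeq2 (adjusted p between 0.0744 and 0.205), and HNF4A stood at -0.24 (-0.57 to 0.09). No relation between these factors and the members was tested.

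**Figure D4:**
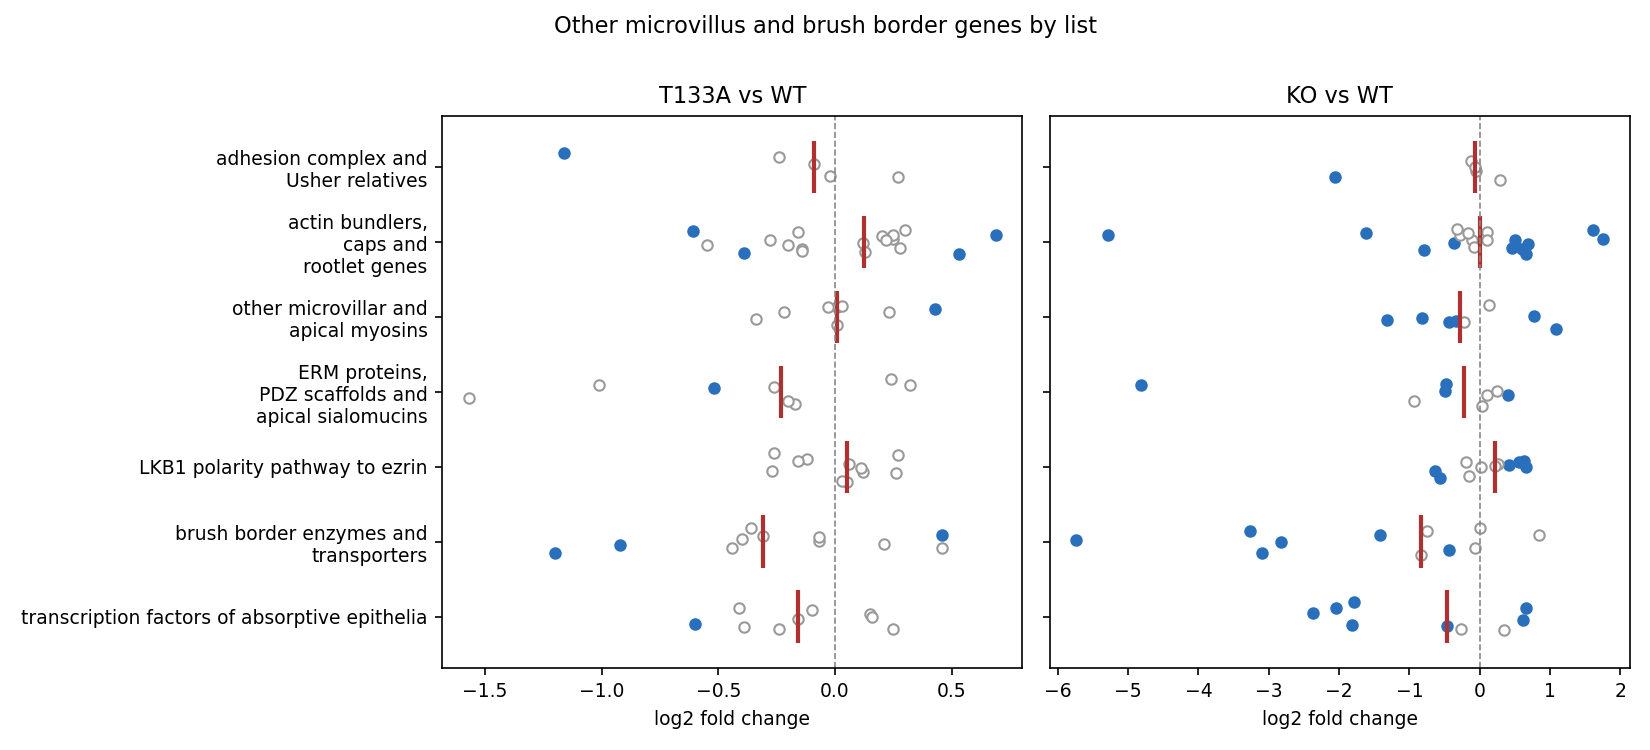
Log2 fold changes of the 70 tested genes of 7 lists in T133A and KO against WT; each point is a gene, filled where it passed an adjusted p under 0.05 in edgeR's fit, and red bars are list medians. The enzymes and transporters have the lowest median in both panels (-0.31 and -0.83), while the median of the LKB1 pathway is above 0 in both (0.05 and 0.22); the horizontal scales differ.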

How the data were processed

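Each of 6 A549 RNA libraries had 1 deposited table of genes with counts, FPKM and positions. Per the submitters' processing notes the tools were featureCounts 1.5.0 and HISAT2 2.0.5 on GRCh38; whether counting used strand, and which annotation, is not given in the sources used here. Counts deposited by the authors are whole numbers without normalization. FPKM values deposited by the authors divide the count by gene length and by 0.967 to 1.03 times the library's total, and were used only for levels between genes. The members and lists were chosen with earlier results of these data known.

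Differences were tested with edgeR 4.0.16 (R 4.3.3; quasi-likelihood, robust, TMM, filterByExpr) over 16340 genes, fitting the 6 libraries at once by group, two-sided, adjusted by Benjamini-Hochberg at 0.05. CPM uses the same scaling. Intervals are 95%. Standard errors are the log2 fold change divided by the root of F. Alternatives were RLE factors, library size only, DESeq2 1.42.0, no filter, only the compared groups, a replicate block and each library left out; a GC content and length correction was chosen after the data were seen. The procedure was tested on simulated counts. Genes named were all members, and per list and comparison with WT up to 3 called genes, taken by adjusted p, or the most abundant gene where none was called; others are said to be chosen later. Lists hold textbook genes. Protein sequences were not used here. The fourth promoter motif searched, which windows of ANKS4B and CDHR2 held, and some genes are not reported here.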

Additional observations from a re-analysis of the deposited data

How the results depend on the processing

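The 7 members lower in KO and the 6 higher in T133A than in KO kept these counts under every alternative run, and the 6 lower in T133A than in WT did so under all but the fits with a library left out (4 to 6). VIL1 could not be fitted for T133A against KO with only those groups, having too few counts. In T133A against WT, the number of all genes called, 1560, was 763 to 2579 with a library left out and 2588 with the GC and length correction. The genes of the 7 lists called higher, 4, were 2 to 9 with a library left out and 9 with that correction, and those called lower, 7, were 2 to 9 with a library left out and 4 with DESeq2. In T133A against KO the correction called 26 list genes lower in place of 17. The cause was not tested, beyond the loss of a replicate in the fits that left one out, where the lone library of a group is assumed to vary like the others. That correction moved the median of all genes to 0.151 in KO against WT, where the share of calls that were higher went from 50.7% to 64.5%, and to -0.148 in T133A against KO (50.9% to 34.4%); PLS1 then stood at -0.90 in KO. With library size only, the higher share in T133A against WT went from 58.5% to 45.0%. Across genes, the difference of T133A replicate 1 from replicate 2 correlated with GC content at 0.50 (Spearman). The same correlation was -0.29 between the KO replicates, -0.18 between those of WT, 0.17 for T133A minus WT and 0.26 for KO minus WT. The part of GC content in these changes was not tested. The replicate numbers were not shown to pair libraries: deviations of same-numbered libraries correlated across genes at -0.05 (WT and T133A), 0.02 (WT and KO) and -0.12 (T133A and KO). With the replicate block, 1419, 7165 and 6031 genes were called in T133A against WT, KO against WT and T133A against KO, and 6, 7 and 6 members. Depth limited CDHR5, VIL1 and ESPN most.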
